A study of Mus musculus with 79 samples.

Results

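The genes of endothelial cells and of blood vessel growth were followed through nerve repair in mice. They are 35 of the 23361 genes in each of the 3 deposited tables, taken by symbol from a list that covers endothelial receptors, junction proteins, transcription factors, secreted products and angiogenic ligands. All 35 symbols were found. The first 4 groups hold 26 genes that mark endothelium, and the last holds 9 ligands that other cells can also make.

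Blood vessels enter an injured nerve early, and endothelial cells are known to line the tracks along which Schwann cells migrate across a nerve gap. Vegfa from macrophages signals to endothelial cells through Kdr, angiopoietins signal through Tek, and Dll4 signals through Notch receptors to set which endothelial cells lead a sprout. Endothelial cells in turn secrete Pdgfb, which recruits pericytes and smooth muscle cells, together called mural cells.

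The study bridged a gap in the leg nerves of mice with a silicone tube, which led from the common peroneal nerve, cut on the day of repair, into the far end of the tibial nerve (the distal stump). In the delayed repair group the tibial branch had been cut 8 weeks before, and in the immediate repair group the cut and the repair were made together, with the site only opened and closed 8 weeks before. Macrophages and Schwann cells (SCs) were sorted from single, unpooled bridges 5 and 14 days after repair, and the distal stump was taken at day 5. The mice for sorting carried enhanced GFP under the human S100β promoter in both repair groups, which marks SCs, and both sexes were used; the ages are not given in the sources used here. The stump gave 9 delayed and 7 immediate libraries. Macrophages gave 9 delayed and 8 immediate libraries at day 5, and 7 and 8 at day 14. The SC fraction gave 9 and 7 at day 5, and 7 and 8 at day 14. The 79 libraries came from 32 animals, and 31 animals gave both a macrophage and an SC library. The sort left out cells that stained for CD31, the protein of Pecam1, along with other lineage antigens, so endothelial cells were to be excluded from both sorted fractions and were kept in the stump.

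Total counts per library ran from 3898778 to 9212710 in the stump, from 14928748 to 28499405 in macrophages and from 11614940 to 30796825 in the SC fraction. Levels below are CPM (a gene's counts scaled to a common library total) after TMM scaling, and a count of 3 in the smallest library came to 0.77 CPM in the stump, 0.201 CPM in macrophages and 0.258 CPM in the SC fraction. The markers of the SC fraction went against its label. The summed level of 8 SC markers had group medians of 248 to 1416 CPM there, while 6 dendritic cell markers summed to group medians of 23322 to 32392 CPM, and Ccr7, a receptor of migrating dendritic cells, had group medians of 3879 to 7464 CPM. This fraction is therefore called the sorted SC fraction. Macrophage libraries had 12646 to 17596 CPM of 7 macrophage markers as group medians, and 13.7 to 19.7 CPM of the SC markers.

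The distal stump was compared first, because it holds the vessels. In the stump at day 5, endothelial genes were higher after delayed repair as a group. Of the 35 genes, 24 were higher and 1 was lower in edgeR's quasi-likelihood test at an adjusted p under 0.05. Of all 12229 genes tested 26.2% were called, 12.7% as higher and 13.5% as lower. Among the 26 endothelial genes, 20 were higher, 0 were lower and 25 had a fold change above 0. The median log2 fold change was 0.64 over the endothelial genes and 0.02 over all genes tested. The labels give each library of a group as a separate animal. Among the 9 ligands, 4 were higher and 1 was lower. Their median log2 fold change was 0.61, close to that of the endothelial genes, with 6 above 0 and 3 below 0. The summed level of the 26 endothelial genes was 1700 to 2319 CPM in the immediate libraries, with a median of 2083, and 2654 to 3883 CPM in the delayed libraries, with a median of 3055. The sums of both groups did not overlap.

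**Figure D1:**
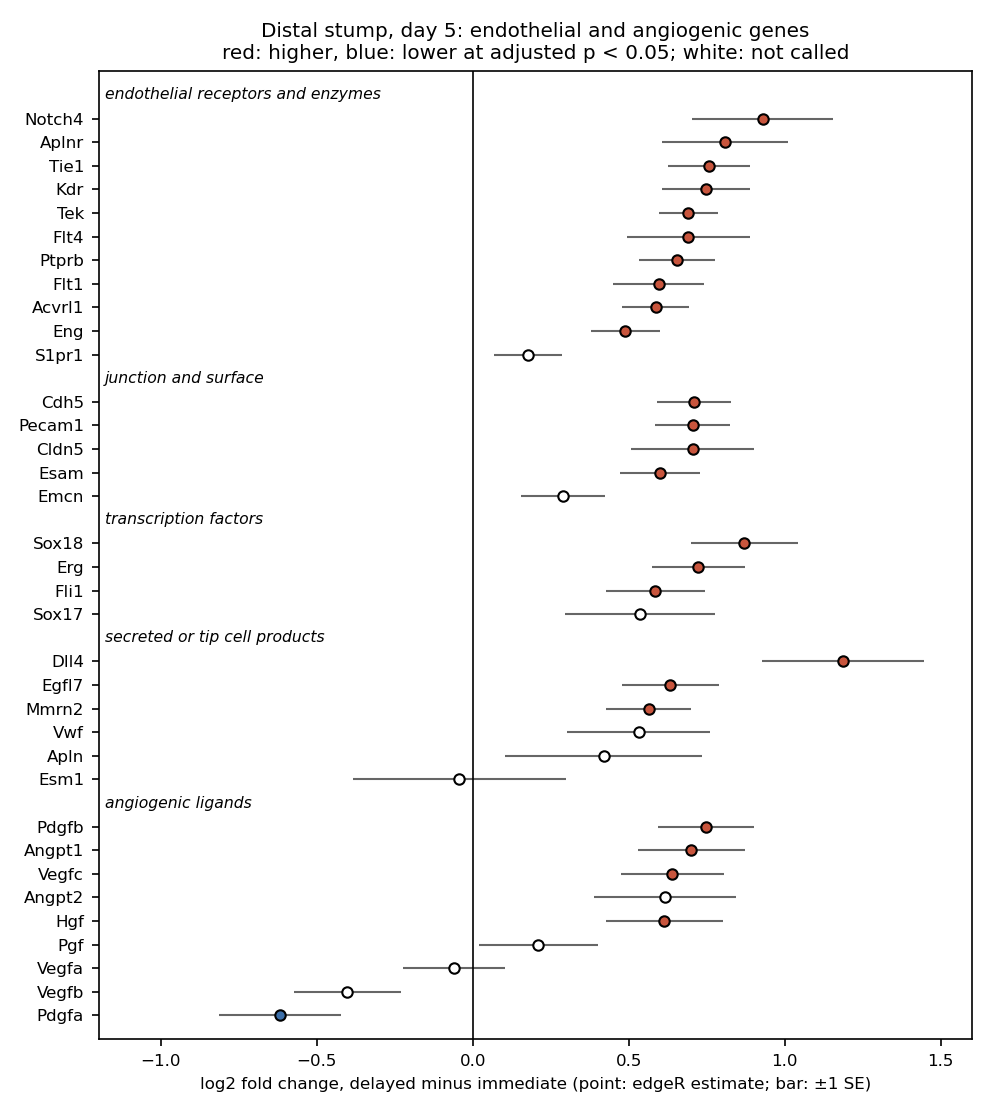
Log2 fold change of each of the 35 genes in the distal stump at day 5, delayed minus immediate repair (x axis, point: edgeR estimate, bar: 1 standard error), grouped by role on the y axis. Red points are the 24 genes called higher, the blue point is the 1 gene called lower (Pdgfa), and white points were not called.

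Other cell types also moved in the stump. All 8 SC markers were lower in the delayed group (median log2 fold change -2.66). Their summed level had a median of 2454 CPM in immediate and of 300 CPM in delayed libraries, and every delayed library lay below the lowest immediate one (1417 CPM). Of 8 mural cell markers, 5 were higher and 1 was lower, and their summed level went from a median of 880 CPM (699 to 987) to 1197 CPM (1098 to 1448). Of 7 macrophage markers, 2 were higher, with summed levels of 1290 CPM (815 to 2901) and 2451 CPM (1846 to 3327). Of 6 fibroblast markers 0 were called in edgeR, while 2 had an unadjusted p under 0.05. Of 6 dendritic cell markers, 1 was higher, with summed levels of 508 CPM (287 to 866) and 875 CPM (563 to 1161). Of 3 lymphatic markers tested, 1 (Reln) was lower and 1 had a fold change above 0. The 5 listed summed to 667 CPM (564 to 1087) and 132 CPM (61.3 to 279). This sum mainly followed Reln, which ran from 7.98 to 1015 CPM over the stump libraries. Pdpn, Prox1, Lyve1 and Ccl21a reached at most 100, 12.5, 20.0 and 33.6 CPM there. The only T cell marker tested, Lck, was higher. Both erythroid markers tested had an unadjusted p under 0.05 and neither was called, with median summed levels of 66.2 and 71.8 CPM and 1636 CPM in the highest delayed library. The part of these cells in the results was not tested. What the loss of SC RNA adds to the shares of the other genes was not tested, and in bulk tissue fewer cells of a type and less RNA per cell cannot be told apart. In delayed replicate 5 the 3 skeletal muscle markers summed to 1744 CPM, against 2.58 CPM at most in the immediate libraries. Without that library, 24 genes were again higher and 1 lower.

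Of the receptors, 10 of 11 were higher, and differences between role groups were not tested. Tek (Tie2, chr4:94739289-94874976 on mm10, plus strand), the angiopoietin receptor, ran from 41.3 to 57.2 CPM with a median of 49.1 in immediate libraries and from 66.2 to 99.4 CPM with a median of 79.6 in delayed libraries. All 9 delayed libraries lay above all 7 immediate libraries. Its log2 fold change was 0.69 (SE 0.095, edgeR adjusted p = 6.71e-05), the smallest p among the 35 genes. Its relative Tie1 (chr4:118471191-118490061, minus strand), which forms complexes with Tek, ran from 66.6 to 102 CPM (median 80.1) in immediate and from 111 to 211 CPM (median 137) in delayed libraries, a log2 fold change of 0.76 (SE 0.13, edgeR adjusted p = 0.00051). Again the groups did not overlap. Ptprb (VE-PTP), the phosphatase that restrains Tek, was at 148 to 229 CPM (median 199) and 199 to 385 CPM (median 324), a log2 fold change of 0.65 (SE 0.12, edgeR adjusted p = 0.000979), and delayed replicate 9 alone reached down into the immediate range.

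The VEGF receptors rose together. Kdr (VEGFR2, chr5:75932827-75978458, minus strand), the main signalling receptor for Vegfa, ran from 98.4 to 167 CPM (median 115) in immediate libraries and from 150 to 276 CPM (median 210) in delayed libraries. The ranges touched at their ends, and each of the 9 delayed libraries was above the immediate median. The log2 fold change was 0.75 (SE 0.14, edgeR adjusted p = 0.00104). Flt1 (VEGFR1), a decoy for Vegfa, was at 37.6 to 64.6 CPM (median 54.3) and 59.8 to 120 CPM (median 75.2), with a log2 fold change of 0.60 (SE 0.15, edgeR adjusted p = 0.00672). Flt4 (VEGFR3), the receptor for Vegfc, had a log2 fold change of 0.69 (SE 0.20, edgeR adjusted p = 0.0161).

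The receptors of the BMP branch also rose. Acvrl1 (ALK1) was at 44.9 to 68.5 CPM (median 50.0) in immediate and at 68.8 to 96.2 CPM (median 83.3) in delayed libraries, so that the groups were just apart, with a log2 fold change of 0.59 (SE 0.11, edgeR adjusted p = 0.000874). Its co-receptor Eng rose by 0.49 (SE 0.11). Aplnr, the apelin receptor, rose by 0.81 and Notch4, a Notch receptor of endothelium, by 0.93 on the log2 scale. S1pr1, the sphingosine-1-phosphate receptor that steadies vessels, was the 1 receptor not called, with a log2 fold change of 0.18 (SE 0.11, edgeR adjusted p = 0.248), and 8 of 9 delayed libraries lay above the immediate median. Eng overlaps Fpgs in the annotation, and reads of both strands may be shared where the counting ignored strand.

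Junction and surface genes followed, with 4 of 5 higher. Pecam1 (CD31, chr11:106654217-106750628, minus strand), an adhesion molecule of endothelial contacts, ran from 157 to 268 CPM (median 205) in immediate libraries and from 299 to 402 CPM (median 336) in delayed libraries. The groups did not overlap, and the log2 fold change was 0.70 (SE 0.12, edgeR adjusted p = 0.000461). Cdh5 (VE-cadherin, chr8:104101625-104144511, plus strand), the cadherin of endothelial junctions, was at 197 to 248 CPM (median 221) and at 218 to 449 CPM (median 385). Of the 9 delayed libraries 8 were above every immediate library, and delayed replicate 5, at 218 CPM, was inside the immediate range. The log2 fold change of Cdh5 was 0.71 (SE 0.12, edgeR adjusted p = 0.000405).

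Esam, another junction molecule, is named because its groups did not overlap, which was seen after its values. It was at 55.5 to 83.7 CPM in immediate and 84.9 to 140 CPM in delayed libraries, with a log2 fold change of 0.60 (SE 0.13, edgeR adjusted p = 0.00235). Cldn5, a tight junction protein, rose by 0.70 (SE 0.20, edgeR adjusted p = 0.0141). Emcn (endomucin), a sialomucin of venous and capillary endothelium, was not called, with a log2 fold change of 0.29 (SE 0.14, edgeR adjusted p = 0.126). In all, Tek, Tie1, Acvrl1, Pecam1 and Esam, 5 of the 35 genes, had delayed libraries wholly above the immediate ones, and 1.12% of all genes tested did.

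**Figure D2:**
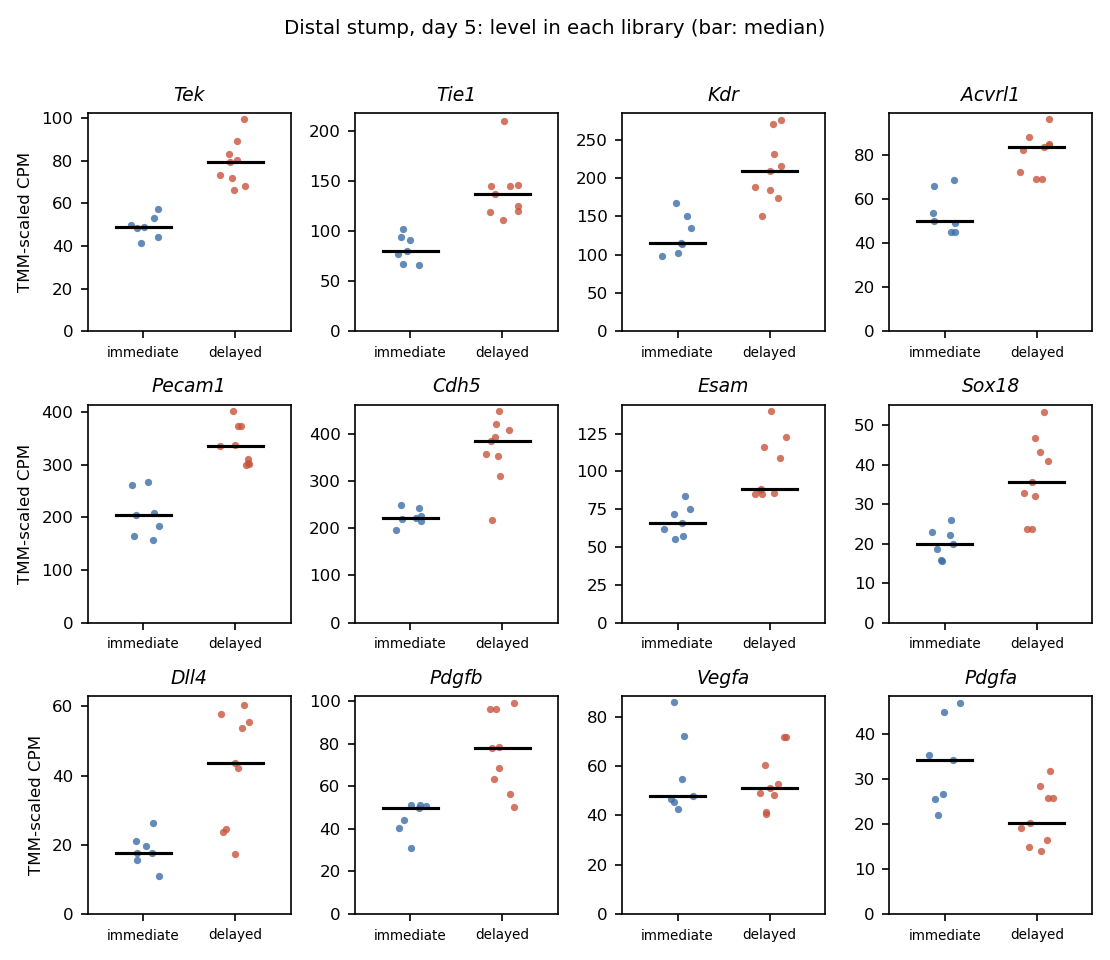
TMM-scaled CPM (y axis) of 12 of the genes in each distal stump library at day 5, immediate (blue) and delayed (red) repair (x axis), with bars at the medians. Tek, Tie1, Acvrl1, Pecam1 and Esam separate the groups, Vegfa overlaps throughout (medians 48.1 and 51.3 CPM), and Pdgfa is lower after delayed repair.

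Of the transcription factors of endothelial identity, 3 of 4 were higher. Sox18 was at 15.6 to 26 CPM (median 19.9) in immediate and 23.6 to 53.3 CPM (median 35.6) in delayed libraries, with a log2 fold change of 0.87 (SE 0.17, edgeR adjusted p = 0.00149). The groups overlapped at their ends only. Erg and Fli1, both ETS factors, rose by 0.72 (SE 0.15) and 0.58 (SE 0.16). Sox17, an arterial factor, had a log2 fold change of 0.54 (SE 0.24, edgeR adjusted p = 0.111) and was not called.

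Because these genes moved together in the stump, their upstream sequences were searched on both strands for the cores of an ETS site (CCGGAA), a SOX site (AACAAT) and a hypoxia response site (ACGTG). RefSeq promoters on GRCm38.p6 were matched for 20 of the 35 genes, and the 250 bases before each of their 28 starts were read. The ETS core was in 1 of the 28 windows (Kdr) and in 12.0% of 32851 promoters. The SOX core was in 3 of the 28 (1 each of Tek, Emcn and Erg) and in 9.42% of promoters, and the hypoxia core in 1 of the 28 (Vegfa) and in 16.6%. The windows below hold the match, in capitals, for 3 of the genes that rose, each printed 5′ to 3′ on the gene's own strand. All 3 read as the reverse complement of the core.
Tek, chr4:94739179-94739278, plus strand: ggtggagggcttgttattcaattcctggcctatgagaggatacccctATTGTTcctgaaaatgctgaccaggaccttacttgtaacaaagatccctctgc
Kdr, chr5:75978556-75978655, minus strand: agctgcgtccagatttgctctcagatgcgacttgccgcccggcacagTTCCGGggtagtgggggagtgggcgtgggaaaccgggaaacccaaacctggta
Erg, chr16:95459416-95459515, minus strand: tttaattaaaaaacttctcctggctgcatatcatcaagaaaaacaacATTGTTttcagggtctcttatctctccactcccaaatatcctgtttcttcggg
The match ends 57 bases before the start in Tek, 147 in Kdr and 114 in Erg. Erg has 3 starts in this table, and the match stands before the innermost one, within the gene, while the windows of the other 2 hold no match. A match of letters is a description and not a bound site.

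Among secreted and sprouting products, 3 of 6 were higher. Dll4 (chr2:119325784-119335962, plus strand), the Notch ligand of the cells that lead a sprout, had the largest fitted log2 fold change of the 35 genes, 1.19 (SE 0.26, edgeR adjusted p = 0.00304). It ran from 10.9 to 26.2 CPM (median 17.7) in immediate and from 17.4 to 60.5 CPM (median 43.5) in delayed libraries, and delayed replicates 5, 8 and 9 (17.4, 24.5 and 23.8 CPM) lay in the immediate range. Mmrn2, a matrix protein that binds endothelial receptors, rose by 0.56 and Egfl7, a secreted regulator of vessel tubes, by 0.63 on the log2 scale. Vwf, the clotting factor stored by endothelium, had a log2 fold change of 0.53 (SE 0.23, edgeR adjusted p = 0.0967), and Apln, the ligand of Aplnr, 0.42 (SE 0.32, edgeR adjusted p = 0.347). Esm1, a product of sprouting cells, had -0.04 (SE 0.34, edgeR adjusted p = 0.94), a sign that turned under other settings. None of these last 3 was called. Egfl7 overlaps Agpat2 and Esm1 overlaps Gzmk in the annotation.

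The ligands did not move as 1 group. Pdgfb, which endothelial cells release to hold mural cells, was at 30.9 to 51.3 CPM (median 49.6) in immediate and 50.3 to 98.9 CPM (median 78.1) in delayed libraries, with a log2 fold change of 0.75 (SE 0.15, edgeR adjusted p = 0.00197). Only the lowest delayed library fell into the immediate range. Hgf, the ligand of Met, was at 12.2 to 28.6 CPM (median 19.5) and 23.8 to 51.0 CPM (median 26.5), a log2 fold change of 0.61 (SE 0.19, edgeR adjusted p = 0.0229). Its groups overlapped, and its call was lost without immediate replicate 6 (adjusted p = 0.0533), with limma-voom and with replicate numbers as a block (adjusted p of 0.0758 at most).

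Vegfc, the lymphatic VEGF, rose by 0.64 (SE 0.17, edgeR adjusted p = 0.00908) and Angpt1, the activating ligand of Tek, by 0.70 (SE 0.17, edgeR adjusted p = 0.00652). Angpt2, the context-dependent Tek ligand of activated endothelium, ran from 22.2 to 44.8 CPM (median 34.0) in immediate and from 26.3 to 90.8 CPM (median 48.5) in delayed libraries. Its log2 fold change of 0.62 (SE 0.23) did not pass (edgeR adjusted p = 0.0562), and 7 of 9 delayed libraries were above the immediate median. Angpt2 lies within Mcph1.

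Vegfa (chr17:46016993-46032369, minus strand) was at 42.6 to 86.2 CPM (median 48.1) in immediate and 40.5 to 71.8 CPM (median 51.3) in delayed libraries, which overlapped throughout. Its log2 fold change was -0.06 (SE 0.16, edgeR adjusted p = 0.82), and its sign turned under other settings. Pgf, the VEGF family member that binds Flt1 only, was at 6.33 to 10.9 CPM (median 7.54) and 5.58 to 14.7 CPM (median 8.91), with a log2 fold change of 0.21 (SE 0.19, edgeR adjusted p = 0.449). Vegfb, another Flt1 ligand, had -0.40 (SE 0.17, edgeR adjusted p = 0.0942), and 8 of 9 delayed libraries lay below the immediate median.

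Pdgfa (chr5:138976014-138997370, minus strand), a ligand of Pdgfra on fibroblasts and glial precursors, is named as the only gene called lower. It was at 22.0 to 46.9 CPM (median 34.2) in immediate and 14.1 to 31.9 CPM (median 20.2) in delayed libraries. All 9 delayed libraries lay below the immediate median, with a log2 fold change of -0.62 (SE 0.20, edgeR adjusted p = 0.0266). The call was lost without immediate replicate 2 or 3, where the adjusted p reached 0.0657 at most, and in the fit with replicate numbers as a block (adjusted p = 0.122). It stands beside the SC markers, all 8 of which were lower, and their part in it was not tested.

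Per kilobase of exon, the most abundant of the 35 genes in immediate stumps were Cdh5 (median 52.6 CPM per kilobase, 46.9 to 59.1), Pecam1 (33.0, 25.2 to 43.0) and Aplnr (31.4, 20.0 to 36.0), and the last 2 overlapped. The least abundant were Pgf, Vegfc and Flt4, at medians of 2.60, 2.18 and 2.15 CPM per kilobase. The same 3 genes led in delayed stumps, where Cdh5 reached a median of 91.7 CPM per kilobase. Vegfa stood 19th of 35 in immediate and 22nd of 35 in delayed stumps.

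Genes of the same pathways outside the 35 were read from further lists. Of 20 other endothelial genes, 17 were higher after delayed repair and 0 were lower, and their median log2 fold change was 0.62. Of 8 receptors on mural cells, fibroblasts and other cells, 4 were higher and 1 was lower. That 1 was Met, the receptor of Hgf, at a log2 fold change of -2.45 (SE 0.22, edgeR adjusted p = 9.96e-07), while Pdgfrb, the receptor of Pdgfb, was at 0.41 (SE 0.10, edgeR adjusted p = 0.00703). Of 12 hypoxia genes tested, 1 was higher, and it was Epas1 (HIF2α, log2 fold change 0.82), which is itself abundant in endothelium. Their median log2 fold change was 0.07.

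Each sex was also read alone, an alternative chosen after the data had been seen. In males, with 4 delayed and 4 immediate libraries, 15 of the 35 genes were higher and 0 lower, 32 were above 0 and the median log2 fold change was 0.62, where 9.97% of all genes were called. In females, with 5 and 3 libraries, 3 of 34 (Tek, Tie1 and Cldn5) were higher and 0 lower, 31 were above 0 and the median was 0.64, where 4.19% of all genes were called. The difference between the sexes was not tested.

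In the sorted fractions most endothelial genes were absent or nearly so. Of the 26 endothelial genes, 13 had a count of 0 in most of the 63 sorted libraries. They were Tek, Tie1, Flt4, Aplnr, Ptprb, Cldn5, Emcn, Erg, Sox17, Sox18, Esm1, Apln and Mmrn2. Ptprb had a count of 0 in all 32 macrophage libraries and in 27 of 31 SC libraries. The summed level of these 13 genes was at most 2.79 CPM in any macrophage library, while it was 572 to 1440 CPM in the stump. Stump and sorted libraries were made by different methods and are set side by side without a test.

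One sorted library stood apart. In the SC fraction, immediate replicate 8 of day 14 had 127 CPM summed over the 13 genes, and the other 30 SC libraries had 0 to 10.1 CPM. It held Pecam1 at 107 CPM, Cldn5 at 44.2 CPM, Cdh5 at 20.5 CPM, Tie1 at 12.7 CPM and Tek at 10.5 CPM. Results for the SC fraction at day 14 are given with and without it where they change.

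**Figure D3:**
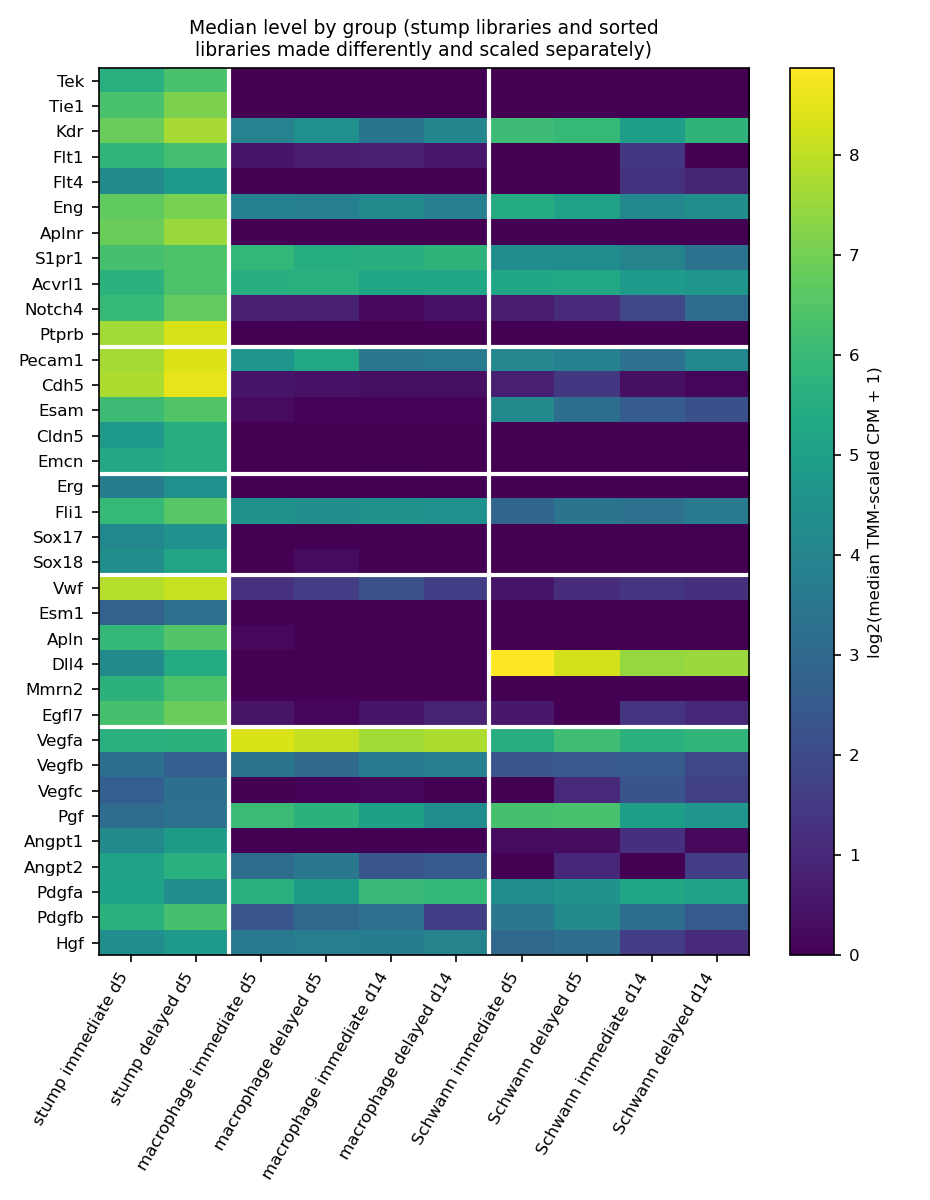
Group medians of the 35 genes as log2(TMM-scaled CPM + 1) (colour), with genes in rows by role and the 10 groups in columns. Stump columns (left) show all genes, macrophage columns (middle) mainly Vegfa, Pgf, Pdgfa, S1pr1 and Acvrl1, and Schwann columns (right) Dll4, Pgf, Kdr and Vegfa.

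In macrophages 13 of the 35 genes were measured well enough to test, 6 endothelial and 7 ligands. Vegfa was the most abundant, with group medians of 199 to 334 CPM. None of the 13 differed between repair groups at day 5 by edgeR's adjusted p, where 0.0357% of all 8409 genes did, and neither DESeq2 nor limma-voom called any. At an unadjusted p under 0.05 there were 4 of the 13, and 435 of all 8409 genes. Kdr had a log2 fold change of 0.70 (edgeR adjusted p = 0.841), S1pr1 -0.56 (0.58), Vegfa -0.38 (0.766) and Pdgfa -0.72 (0.561). Vegfa was at 294 to 427 CPM (median 334) in immediate and 194 to 334 CPM (median 271) in delayed libraries, and 8 of 9 delayed libraries lay below the immediate median. Pdgfa was at 19.0 to 59.4 CPM (median 48.2) and 14.5 to 46.9 CPM (median 27.5), and with the replicate number as a block its log2 fold change of -0.80 was called (edgeR adjusted p = 0.0184). At day 14, 0 of 13 were called by edgeR, DESeq2 or limma-voom, 0 had an unadjusted p under 0.05, and 0% of all genes were called.

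Macrophages of day 14 were next compared with those of day 5, within each repair group. Pecam1 and Angpt2 were lower at day 14 in both, Vegfa after immediate repair, and Pdgfa was higher after delayed repair. After immediate repair, 3 of 13 genes were lower at day 14 than at day 5 and 0 were higher, where 11.8% of all 8949 genes were called, 6.49% as lower and 5.34% as higher. After delayed repair, 3 were lower and 2 higher, where 9% of all genes were called, 4.51% as lower and 4.48% as higher. The median log2 fold change of the 13 genes was -0.14 and -0.02, beside 0.01 and -0.00 for all genes. Markers of the sorted cells moved between the same days. The summed level of 6 dendritic cell markers went from a median of 3122 CPM (1356 to 4133) to 10901 CPM (8521 to 15453) after immediate repair and from 3015 CPM (2202 to 5152) to 9531 CPM (7113 to 18653) after delayed repair. Of the 4 tested, Cd74, H2-Ab1 and Itgax were higher in both and Ccr7 did not pass, while Flt3 and Zbtb46 were too low to test. Of 7 macrophage markers, 3 were lower after immediate and 1 after delayed repair, and 1 of 3 neutrophil markers tested (S100a8) was lower in both. The part of these cells in the results below was not tested. Both comparisons use libraries that also enter the tests above.

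Pecam1 was lower at day 14 in both. After immediate repair it went from 17.9 to 49.6 CPM (median 24.2) at day 5 to 8.23 to 24.1 CPM (median 10.4) at day 14, a log2 fold change of -1.17 (SE 0.25, edgeR adjusted p = 0.00145). After delayed repair it went from 18.2 to 55.1 CPM (median 39.3) to 8.16 to 15.1 CPM (median 11.7), a log2 fold change of -1.64 (SE 0.26, edgeR adjusted p = 6.35e-05). The days did not overlap after delayed repair, which held for 0.793% of all genes in that direction. Pecam1 is also made by monocytes and platelets. The sort left out cells that stained for its protein, CD31, so these are the levels left after that gate. The part of the gate in the fall of Pecam1 was not tested. Of 6 platelet markers, Itga2b, Gp9, Gp1bb and Treml1 were at or near 0 in macrophages, with group medians of at most 0.244 CPM. The other 2, the chemokines Pf4 and Ppbp, were lower at day 14, Pf4 from group medians of 2639 and 2001 CPM to 655 and 644 CPM and Ppbp from 232 and 247 CPM to 8.84 and 10.8 CPM, in immediate and delayed macrophages.

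Vegfa was lower at day 14 after immediate repair. It went from 294 to 427 CPM (median 334) to 130 to 285 CPM (median 199), with no overlap of the days, which held for 1.36% of all genes in that direction. The log2 fold change was -0.73 (SE 0.18, edgeR adjusted p = 0.00623). After delayed repair it was at 194 to 334 CPM (median 271) and 158 to 490 CPM (median 220), with a log2 fold change of -0.02 (SE 0.18, edgeR adjusted p = 0.964) and a sign that turned under other settings. The test of the difference between both day effects gave 0.71 (SE 0.26) with an unadjusted p of 0.00864 and an edgeR adjusted p of 1, and 0 of the 13 genes passed in that interaction test with edgeR, DESeq2 or limma-voom, where 0.0223% of all genes did. Of 13 hypoxia genes tested in macrophages, 5 were lower at day 14 after immediate repair and 0 were higher, and 7 were lower and 1 higher after delayed repair.

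Angpt2 was lower at day 14 in both repair groups. After immediate repair it went from a median of 7.71 CPM (6.47 to 14.5) to 4.24 CPM (2.33 to 8.84), a log2 fold change of -0.95 (SE 0.28, edgeR adjusted p = 0.025). After delayed repair it went from 10.6 CPM (7.05 to 14.5) to 5.05 CPM (1.78 to 10.8), a log2 fold change of -0.91 (SE 0.29, edgeR adjusted p = 0.0426). The ranges of the days overlapped in both. Neither call was made with scaling by library size alone (adjusted p = 0.0557 after immediate repair), and the call after delayed repair was also lost with no filter on low counts, with an adjusted p of 0.0635 at most in these fits. The call after immediate repair was lost without day 5 replicate 3 or 6 or day 14 replicate 1 or 3 of that group. The call after delayed repair held in 20 of 32 fits that left out 1 library, and the largest adjusted p was 0.0863.

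Pgf went from a median of 51.3 CPM (32.9 to 109) to 18.7 CPM (11.4 to 74.2) after delayed repair. This log2 fold change of -1.17 (SE 0.38, edgeR adjusted p = 0.0497) was at the threshold, and was called in 10 of 32 fits that left out 1 library. It was called in 4 of 7 alternative fits. The call was lost with scaling by library size alone and with both other filters (edgeR adjusted p of 0.082 at most). After immediate repair Pgf went from 65.2 CPM (25.6 to 124) to 31.7 CPM (12.9 to 62.4), a log2 fold change of -1.04 (SE 0.37, edgeR adjusted p = 0.0637).

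Pdgfa moved the other way. After delayed repair it went from 14.5 to 46.9 CPM (median 27.5) to 38.5 to 88.9 CPM (median 59.0), and all 7 libraries of day 14 lay above the median of day 5. Its log2 fold change was 1.19 (SE 0.24, edgeR adjusted p = 0.00106). After immediate repair the fold change was 0.65 (SE 0.24, edgeR adjusted p = 0.0653), a value that passed in 5 of the 7 alternative fits. Vegfb rose by 0.86 after delayed repair (SE 0.22, edgeR adjusted p = 0.0119), from a median of 7.43 CPM (5.27 to 12.5) to 13.7 CPM (6.61 to 21.9), and its adjusted p was 0.0507 without delayed replicate 7 of day 14. After immediate repair Vegfb had a log2 fold change of 0.42 (SE 0.22, edgeR adjusted p = 0.218).

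**Figure D4:**
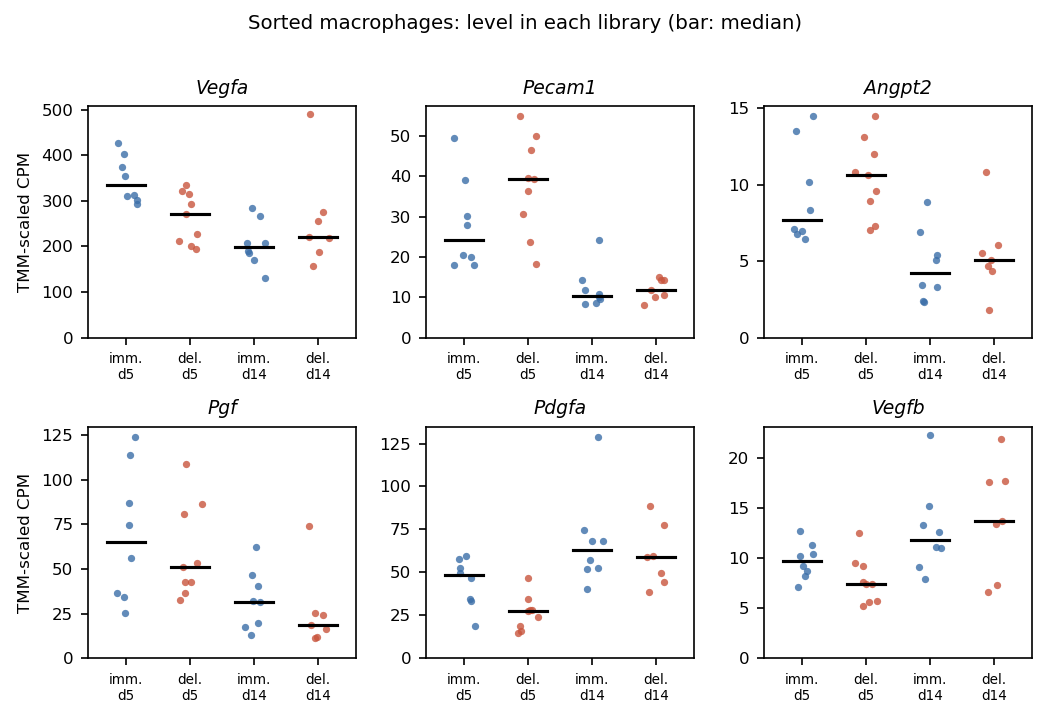
TMM-scaled CPM (y axis) of 6 genes in each sorted macrophage library, by repair (blue immediate, red delayed) and day (x axis), with bars at the medians. Vegfa has its highest group median after immediate repair at day 5 (334 CPM), where the difference from delayed repair did not pass the test. Its highest single library (490 CPM) is in the delayed group of day 14. Pecam1 and Angpt2 are lower at day 14 in both repair groups. Pdgfa is higher at day 14 after delayed repair, while the difference after immediate repair did not pass the test.

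Scaling moved these counts. With scaling by library size alone, the median log2 fold change of all genes between days was 0.18 after immediate repair, and 1307 genes were higher and 275 lower, against 478 and 581 with TMM. Of the 13 genes, 1 was then higher and 2 were lower after immediate repair, and 2 were higher and 1 lower after delayed repair. After delayed repair all genes split into 469 higher and 252 lower, against 401 and 404.

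In the sorted SC fraction 0 of 14 genes differed between repair groups at day 5 and 0 of 15 at day 14 by edgeR, DESeq2 or limma-voom. At both days 0 of them had an unadjusted p under 0.05, and 0% of all genes passed in edgeR. The test of whether the effect of delay differed between days called 0 of 17, with 0 at an unadjusted p under 0.05.

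Between days only Eng, the TGF-β co-receptor, was called in this fraction. After immediate repair it went from 27.6 to 170 CPM (median 43.1) at day 5 to 10.4 to 20.2 CPM (median 16.7) at day 14, with no overlap and a log2 fold change of -1.83 (SE 0.33, edgeR adjusted p = 0.00121). After delayed repair it went from 22.1 to 101 CPM (median 33.0) to 6.01 to 26.9 CPM (median 20.4), a log2 fold change of -1.21 (SE 0.33, edgeR adjusted p = 0.0245). Of the markers in the same libraries, 2 of 6 dendritic cell markers were lower at day 14 after immediate repair, and S100a8, 1 of 3 neutrophil markers, was higher. The 3 neutrophil markers summed to 6799 CPM in the highest library of day 14 after immediate repair, where the group median was 17.7 CPM, and Eng kept its call there in each of 31 fits that left out 1 library. The platelet marker Pf4 was lower after delayed repair. After delayed repair 1 dendritic cell marker was lower, 4 of 8 SC markers were higher (summed medians of 248 and 1416 CPM) and 2 of 6 fibroblast markers were higher (523 and 3896 CPM). Their part in the fall of Eng was not tested. The call after delayed repair was lost without delayed replicate 4 of day 5 or delayed replicate 1 or 6 of day 14, where the largest adjusted p was 0.0633. Eng was thus 1 of 17 genes tested in each comparison, where 7.21% of all 10923 genes were called after immediate repair (5.17% lower, 2.04% higher) and 6.44% after delayed repair (3.29% lower, 3.15% higher). The days did not overlap, in that direction, for 0.961% of all genes after immediate repair. With scaling by library size alone Eng was again the 1 gene called, while all genes split into 406 higher and 341 lower after immediate repair, against 223 and 565, and into 645 and 242 after delayed repair, against 344 and 359.

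The sorted fractions were last compared with each other, over both repair groups. At day 5, 6 of 15 genes were higher and 8 lower in the SC fraction than in macrophages, where 65.5% of all 10087 genes were called, 35.6% as higher and 29.9% as lower. At day 14, 5 of 17 were higher and 6 lower, where 64.4% of all 10596 genes were called, 36.9% as higher and 27.5% as lower. With the animal as a block, since both fractions came from the same bridges, Pgf lost its call at day 5, and at day 14 Acvrl1 and Angpt2 were also called lower, which made 8. With so many genes called, a call here says little of these 35 genes in particular, and the levels are given. Dll4 and Esam at both days, and Notch4 and Vegfc at day 14, never reached 5 CPM in macrophages. They passed the filter on low counts through the SC fraction alone, so that their calls were set by the filter and are not read as tests. Angpt2 at day 5 and Hgf at day 14 reached 5 CPM in 1 SC library each, and Angpt2 at day 14 in 2, and they passed through macrophages in the same way.

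Dll4 was found almost wholly in the SC fraction. Its count was 0 in 28 of 32 macrophage libraries and never 0 in the SC fraction. In the SC fraction it was at 129 to 1388 CPM (median 468) after immediate and 82.0 to 1091 CPM (median 304) after delayed repair at day 5, and at 57.0 to 424 CPM (median 175) and 10.8 to 264 CPM (median 185) at day 14. No fold or test is given against macrophages at the floor of counting. Dll4 in this fraction stood beside almost no Tek or Tie1, and beside Ccr7 at group medians of 3879 to 7464 CPM and Zbtb46, a transcription factor of dendritic cells, at 159 to 276 CPM. Which cells carried Dll4 was not tested. Its log2 fold change from day 5 to day 14 was -1.30 after immediate (SE 0.56, edgeR adjusted p = 0.17) and -1.12 after delayed repair (SE 0.56, edgeR adjusted p = 0.237).

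Kdr was higher in the SC fraction at both days. It had group medians of 60.3 and 67.1 CPM at day 5 in the SC fraction, and of 14.2 and 21.0 CPM in macrophages, a log2 fold change of 1.92 (SE 0.23, edgeR adjusted p = 1.4e-08). At day 14 it was 1.62 (SE 0.31, edgeR adjusted p = 3.22e-05). Esam had group medians of 8.23 and 17.0 CPM at day 5 in the SC fraction, while macrophage medians were at most 0.198 CPM. Eng was higher at day 5, with a log2 fold change of 2.06 (SE 0.21, edgeR adjusted p = 4.47e-10), and had 0.15 (SE 0.19, edgeR adjusted p = 0.478) at day 14. Pdgfb was higher at day 5, by 1.70 (SE 0.31, edgeR adjusted p = 1.78e-05). Notch4 at day 14 had group medians of 2.71 and 7.55 CPM in the SC fraction and of 0.17 and 0.337 CPM in macrophages.

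Macrophages held more of several ligands. Vegfa was lower in the SC fraction by 2.30 on the log2 scale at day 5 (SE 0.25, edgeR adjusted p = 1.19e-09) and by 2.17 at day 14 (SE 0.22, edgeR adjusted p = 8.48e-10), with group medians of 45.6 to 70.7 CPM there. Vegfb was lower at both days (log2 fold changes -0.72 and -1.59), and so was Pdgfa (-0.61 and -0.89). With scaling by library size the calls of Pdgfa at both days and of Vegfb at day 5 were lost. Pecam1 was lower at day 5 (-1.11). Hgf had macrophage group medians of 12.7 and 14.5 CPM at day 14, and Angpt2 of 7.71 and 10.6 CPM at day 5. Fli1, which leukocytes also express, was lower at both days, by 1.12 and 1.02, and at day 5 the call was lost with scaling by library size (adjusted p = 0.0643). S1pr1 was lower at both days too, by 0.98 and 1.91. Pgf was called higher in the SC fraction at day 5 (log2 fold change 0.61, edgeR adjusted p = 0.0264), a call lost with limma-voom and with the animal as a block. It stood at group medians of 76.5 and 79.6 CPM at day 5 in the SC fraction and 51.3 and 65.2 CPM in macrophages.

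**Figure D5:**
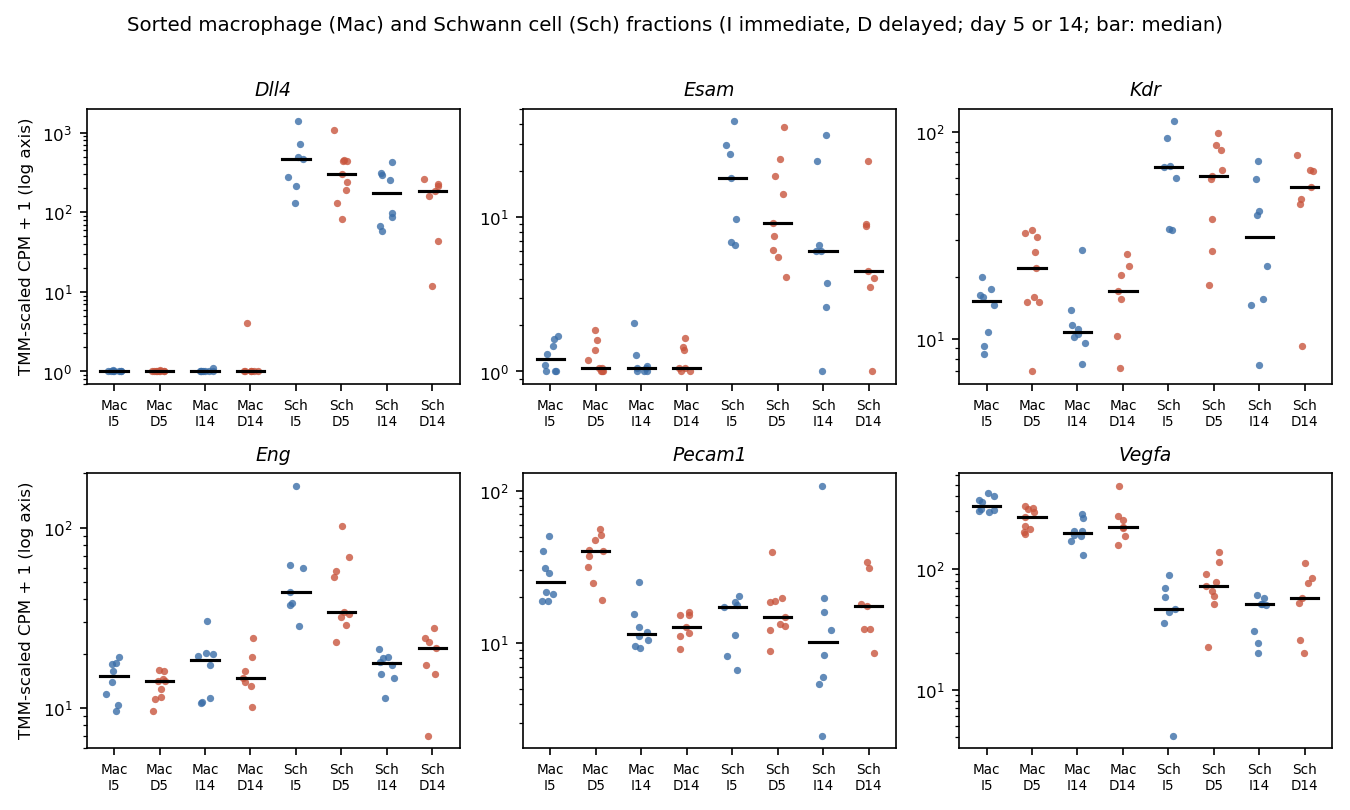
TMM-scaled CPM + 1 (y axis, log scale) of 6 genes in each sorted library, by fraction, repair (blue immediate, red delayed) and day (x axis), with bars at the medians. Dll4 is at or near 0 in macrophages and at 10.8 to 1388 CPM in the SC fraction, and Vegfa is higher in macrophages.

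These counts too moved with the processing. With scaling by library size alone, 6 genes were higher and 4 lower at day 5, and 9 higher and 5 lower at day 14, while the median log2 fold change of all genes was 0.31 and 0.49 against 0.05 and 0.11 with TMM. All genes then split into 4511 higher and 2067 lower at day 5, against 3595 and 3013, and into 5821 and 1732 at day 14, against 3915 and 2913. Without immediate replicate 8 of day 14 in the SC fraction, Vegfc no longer passed the filter on low counts and was not tested. Acvrl1 and Angpt2 gained a call, Angpt2 with the limit of the filter given above, and 12 genes were called in place of 11.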

How the data were processed

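Gene counts of the distal stump, macrophages and SCs were taken from 3 tables of estimated counts deposited by the authors, with no column left unmapped. The authors trimmed reads with cutadapt 1.8, removed rRNA reads of the stump, aligned with TopHat2 2.1.1 to mm10 and used Cufflinks 2.2.1, and the program that wrote the counts is not given in the sources used here. Stump libraries were rRNA-depleted and directional, and sorted libraries came from amplified cDNA. Between 0.951% and 1.18% of values were not whole and were rounded. No pair of libraries was identical.

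The genes and lists were chosen with earlier results of these data known. Genes at 5 CPM or more in at least 6 libraries of a fit were tested with edgeR 4.0.16 (quasi-likelihood, TMM, Benjamini-Hochberg over all genes tested, threshold 0.05) in R 4.3.3, after a test on simulated data. Alternatives were library size scaling, DESeq2 1.42.0, limma-voom (limma 3.58.1), 2 other filters, sex, the replicate number as a block, and leaving out each library. Positions and exon lengths are from GENCODE on the build of the files. Libraries were not treated as paired across repair groups, where different animals carry the same number. Macrophage and SC libraries of 1 animal share the animal's label. The main fit between fractions did not use this pairing, and the animal entered as a block in an alternative fit only. Values were given for called genes (at most the 8 with the smallest p, and 1 per role) and for Pecam1, Kdr, Cdh5, Tek, Flt1, Vegfa, Pgf, Angpt2, Pdgfb and Hgf. Each library is a separate animal within its group, so standard errors include the spread between animals, while the levels given for 3 counts cover counting error only.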

Additional observations from a re-analysis of the deposited data

Results flagged for a closer look

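In 180 pairs of a tested gene and a group, 10 libraries lay far from the others of their group on the log2(CPM + 1) scale, by Dixon's test at the 95% level. Chance flags about 1 in 20 groups. In the stump after delayed repair, Apln was low in replicate 5 (26.2 CPM), Ptprb was low in replicate 9 (199 CPM) and Tie1 was high in replicate 4 (211 CPM). In macrophages at day 14, Pgf was high in delayed replicate 7 (74.2 CPM) and Kdr was high in immediate replicate 5 (25.9 CPM). In the sorted SC fraction after delayed repair at day 14, Eng was low in replicate 1 (6.01 CPM) and Kdr was low in replicate 4 (8.19 CPM). After immediate repair at day 14, Notch4 was high in replicate 8 (20.5 CPM), the library with the other endothelial genes, and Pdgfb was low in replicate 6 (1.79 CPM). After immediate repair at day 5, Vegfa was low in replicate 3 (3.13 CPM). Their causes were not tested.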

How the results depend on the processing

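In the stump, 23 of the 25 calls held in each of 7 alternative fits and 23 in each of 16 fits that left out 1 library, with 24 to 28 genes called. The calls that did not always hold were Pdgfa and Hgf. The stump count was 15 in males only and 3 in females only, both chosen after the data had been seen, with fewer libraries in each. Vegfa turned sign in the stump with limma-voom (0.02), with sex as a covariate (0.006) and in females only (0.11), and with 1 library left out it ran from -0.139 to 0.059. Esm1 turned with the replicate block (0.14), in males only (0.53) and with 1 library left out (-0.217 to 0.189), and S1pr1 in females only (-0.011). The cause was not tested. In macrophages Vegfa between days after delayed repair turned with library size scaling (0.024) and with 1 library left out (-0.263 to 0.075).

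The replicate block called 1 gene in macrophages at day 5 (Pdgfa), 5 between days after immediate repair and 2 in the SC fraction between days after immediate repair. In the stump, Pdgfa (adjusted p = 0.122) and Hgf lost their calls with it and Sox17 gained one. Same-numbered libraries come from different animals of the same sex. Their deviations correlated above 0.1 in 1 of 7 pairs in the stump, in 7 of 8 and 6 of 7 in macrophages at days 5 and 14, and in 3 of 7 and 2 of 7 in the SC fraction. In none of these did every pair do so or every library correlate best with its own number. The numbers were therefore not taken as pairing, though most macrophage pairs deviated together. Delayed macrophage libraries correlated best with their own number in 3 of 8 pairs at day 5 and in 5 of 7 at day 14. For macrophages the block by number is therefore not set aside by this rule. DESeq2, limma-voom and the sex covariate each called 5 genes in macrophages between days after immediate repair. Library size scaling called 3 after delayed repair. In the SC fraction between days, filterByExpr and no filter called 2 each after immediate repair and DESeq2 called 2 after delayed repair. No filter called 21 genes between fractions at day 14. An unadjusted p under 0.05 was reached by 4 genes in macrophages at day 5, 6 between days after immediate repair, 1 in the interaction, and by 2 and 3 in the SC fraction between days after immediate and delayed repair. With 1 library left out, the counts were 2 to 5 and 3 to 5 in macrophages and 1 and 0 to 2 in the SC fraction between days after immediate and delayed repair, and 0 in each comparison of repair groups and interaction of the sorted fractions. With the animal as a block, 5 genes were higher and 8 lower between fractions at both days, and Pgf lost its call at day 5.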
